A study of Danio rerio with 31 samples.

Results

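The endocannabinoid receptor gene cnr1 and the genes of the enzymes that make and break down its ligands were followed in whole brains of zebrafish. The set was chosen by function, from 8 gene names (cnr1, dagla, daglb, mgll, abhd6a, abhd12, napepld and faah), with earlier results on the same fish known; which measured values led to the choice is not recorded, so the calls below are a description and stand as support for nothing. The names matched 9 of the 32520 gene IDs counted, since abhd6a met 2 IDs with the symbol ABHD6 whose paralog letter was not resolved. Of these 9 IDs 8 passed the filter on low counts in every comparison. The ninth, ABHD6 ENSDARG00000070894, had at most 8 reads in any fish and no read in 11 of 24 fish, and was not tested.

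Endocannabinoids are lipid messengers that neurons make on demand and that travel backwards across the synapse. They bind the cannabinoid receptor CB1, the product of cnr1, on the presynaptic terminal and lower transmitter release there. One of them, 2-arachidonoylglycerol, is made by diacylglycerol lipases (dagla, daglb) and cleaved by monoacylglycerol lipase (mgll) and the hydrolases of abhd6 and abhd12; the other, anandamide, is released by napepld and degraded by faah. These roles are known mainly from mammals.

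All 24 fish were adults of the TU line. The F0 males were 6 fish treated with a mix of PCBs (polychlorinated biphenyls) and PBDEs (polybrominated diphenyl ethers), both persistent industrial pollutants, and 6 control fish; the labels give no dose, route or duration of the exposure. The F2 fish were offspring that were not exposed themselves. They were 4 females of the treated and 4 of the control line, and 2 males of each line. The treated and control lines are called arms below. Each fish is named by its number in the labels, and 2 fish of different groups can carry the same number. Nothing in the labels ties a fish to a parent, clutch or tank, so the p-values measure the spread between these fish and do not separate the arm from such units.

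Libraries held 12.2 to 34.1 M reads in genes per fish. Neuronal markers were read in every group, all 18 of 18, with a summed level between 7974 and 9485 CPM (counts scaled to the size of the library) in each fish, and so were all 10 oligodendrocyte and all 12 radial glia markers. In 4 F2 females, control fish 11 and 21 and treated fish 6 and 24, 23 to 114 genes had no read although their median in the other fish was at least 5 CPM; in the other 20 fish 0 to 12 genes did. The share of uniquely aligned reads that fell outside genes was 19.9 to 21.4% in F0 control and 16.6 to 19.5% in F0 treated males, and 21.6 to 23.5% in F2 control and 18.7 to 20.8% in F2 treated females, so it separated the arms in both. Among F0 males 3 libraries stood apart: treated fish 16 had reads in the fewest genes (18838), and control fish 9 and 33 had photoreceptor markers summing to 12.8 and 8.17 CPM, beside 301 to 637 CPM in the other 10. These sums were uneven in F2 fish too. They ran from 12.5 to 343.5 CPM in control and 24.1 to 1064 CPM in treated females. In F2 males they ran from 19.0 to 395.5 CPM in the control and 13.5 to 592 CPM in the treated line. In a brain homogenate, fewer cells of a type and less RNA per cell cannot be told apart.

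The receptor gene varied most from fish to fish among the members with more than a few CPM. Levels are CPM scaled with TMM factors over all 24 fish, and changes are log2 fold changes of treated over control with their standard error (SE) from edgeR's quasi-likelihood test, adjusted by Benjamini-Hochberg over all genes tested. In F0 control males cnr1 (ENSDARG00000009020) ran from 21.3 to 36.0 CPM with a median of 30.4. In F0 treated males it ran from 6.64 to 37.1 CPM with a median of 24.0. The lowest value belonged to treated fish 16, and the arms overlapped. The means were 28.8 ± 6.16 and 23.9 ± 11.2 CPM (SD, n = 6 each), a log2 change of −0.27 (SE 0.309, edgeR adjusted p = 0.598).

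In F2 brains cnr1 was low and uneven. In F2 control females 11, 21, 31 and 39 it stood at 2.33, 0, 6.50 and 15.1 CPM. In F2 treated females 6, 10, 24 and 28 it stood at 22.4, 7.69, 7.59 and 7.24 CPM. In F2 males it was 14.6 and 8.60 CPM in the control line and 10.6 and 13.5 CPM in the treated line. The lowest and the highest F2 values came from fish 21 and 6, which are among the 4 females with many genes at 0, and the part of those libraries in the result was not tested. No read of cnr1 in the 18.1 M reads of fish 21 allows up to 0.174 CPM by counting error alone, taking 3 reads as the limit for a count of 0. The log2 change was 0.90 (SE 0.991) in F2 females and 0.04 (SE 1.39) in F2 males, with edgeR adjusted p = 0.941 and 1. Without those 4 females it was −0.53 (SE 0.400, adjusted p = 0.637) in the females that remained, a setting added after the data were seen. Between F0 and F2 control males the log2 difference of cnr1 was 1.31 (SE 0.899, edgeR adjusted p = 0.422), higher in F0 males, and it did not pass.

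**Figure D1:**
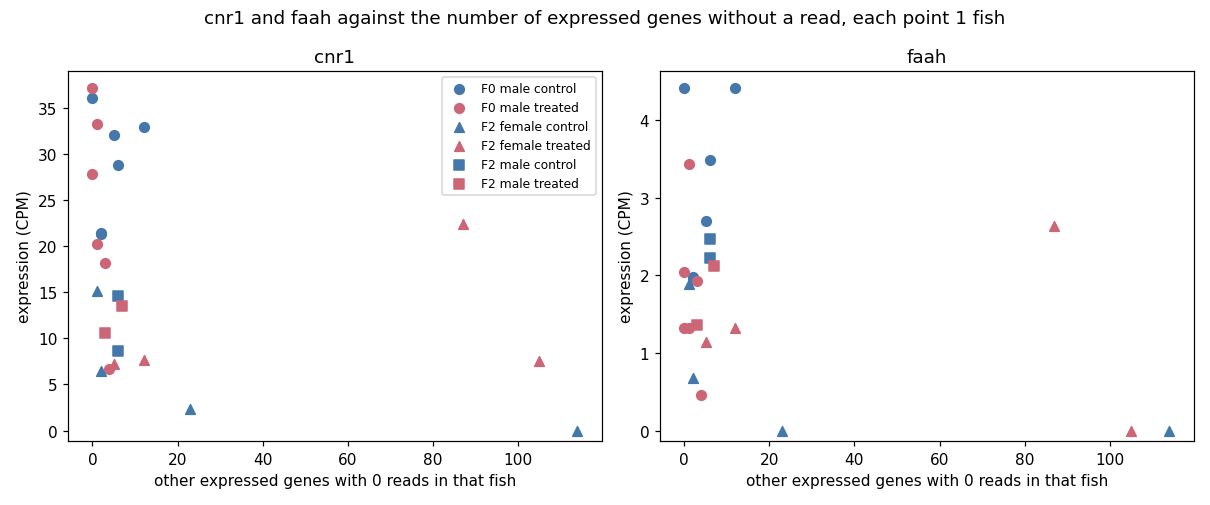
cnr1 (left) and faah (right) in CPM against the number of genes without a read in that fish although their median in the other fish was at least 5 CPM; each point is 1 of 24 fish, blue control and red treated, circles F0 males, triangles F2 females and squares F2 males. The 4 F2 females to the right have 23 to 114 such genes; cnr1 was 0 in one of them and 22.4 CPM in another, and faah was 0 in 3 of them.

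Of the 2 diacylglycerol lipase genes, daglb passed the test in F0 males and dagla did not. The gene daglb (ENSDARG00000089888), the diacylglycerol lipase gene prominent in microglia of mammals, ran from 38.5 to 53.9 CPM in F0 control males with a median of 46.4. In F0 treated males it ran from 58.8 to 82.2 CPM with a median of 65.5. The 2 arms did not overlap, and the lowest treated fish, 24, stood above the highest control fish, 15. The means were 46.2 ± 5.01 and 67.4 ± 8.78 CPM (SD, n = 6 each), a log2 rise of 0.55 (SE 0.105, edgeR adjusted p = 0.015).

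Of the 8 members tested in F0 males daglb was the only one that passed an adjusted p of 0.05. Over all genes 11.4% passed in that comparison (2060 of 18057), so 1 of 8 is near the background. Of the 18057 genes 5.59% had arms that did not overlap, and among the members again daglb alone did. The call stood in each of 12 fits that left out 1 fish, with adjusted p from 0.00731 to 0.0409. It was lost without the 3 libraries that stood apart from the rest (treated fish 16, control fish 9 and 33), at a log2 rise of 0.47 (SE 0.108, adjusted p = 0.0648), and with the percentage of reads outside genes entered as a covariate, at 0.20 (SE 0.139, adjusted p = 0.889). With that covariate 0 of the 18057 genes passed in edgeR, and 1027 had an unadjusted p below 0.05. The share and the arm cannot be told apart in these 12 males, since it separates them.

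In F2 fish the arms did not differ in daglb beyond the spread. In F2 control females 11, 21, 31 and 39 it stood at 55.4, 43.2, 49.96 and 49.3 CPM. In F2 treated females 6, 10, 24 and 28 it stood at 55.4, 68.5, 45.4 and 68.5 CPM. In F2 males it was 56.1 and 65.9 CPM in the control and 58.2 and 75.8 CPM in the treated line. The arms overlapped in both sexes. Its log2 change was 0.26 (SE 0.163) in F2 females and 0.12 (SE 0.230) in F2 males, with edgeR adjusted p = 0.822 and 1, and in males it ranged from −0.064 to 0.30 with 1 fish left out. The change in F0 males minus that in F2 males was 0.42 (SE 0.236, adjusted p = 0.822), so no difference of the change between generations was shown. Between F0 and F2 control males the log2 difference of daglb was −0.40 (SE 0.163, edgeR adjusted p = 0.133), lower in F0 males, and it did not pass.

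The gene dagla (ENSDARG00000062956), whose product makes most of the brain's 2-arachidonoylglycerol in mammals, was held within a narrow range in F0 controls. It ran from 121.5 to 133 CPM with a median of 129 there. In F0 treated males it ran from 87.7 to 152 CPM with a median of 119.5. Both ends of the treated range lay outside the control range, with fish 16 lowest and fish 2 and 10 highest. The means were 128 ± 4.78 and 125 ± 24.3 CPM (SD, n = 6 each) and the log2 change was −0.04 (SE 0.109, edgeR adjusted p = 0.853).

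In F2 control females 11, 21, 31 and 39 dagla stood at 75.4, 84.9, 86.5 and 94.7 CPM. In F2 treated females 6, 10, 24 and 28 it stood at 150.2, 87.6, 68.5 and 114 CPM. In F2 males it was 104 and 81.1 CPM in the control and 95.0 and 127 CPM in the treated line. Again the treated line held both the lowest and the highest female, and both were fish with many genes at 0. The log2 change was 0.29 (SE 0.194, edgeR adjusted p = 0.848) in F2 females and 0.25 (SE 0.274, adjusted p = 1) in F2 males. Between F0 and F2 control males dagla was higher in F0 by 0.47 on the log2 scale (SE 0.206, edgeR adjusted p = 0.160), a difference that did not pass.

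**Figure D2:**
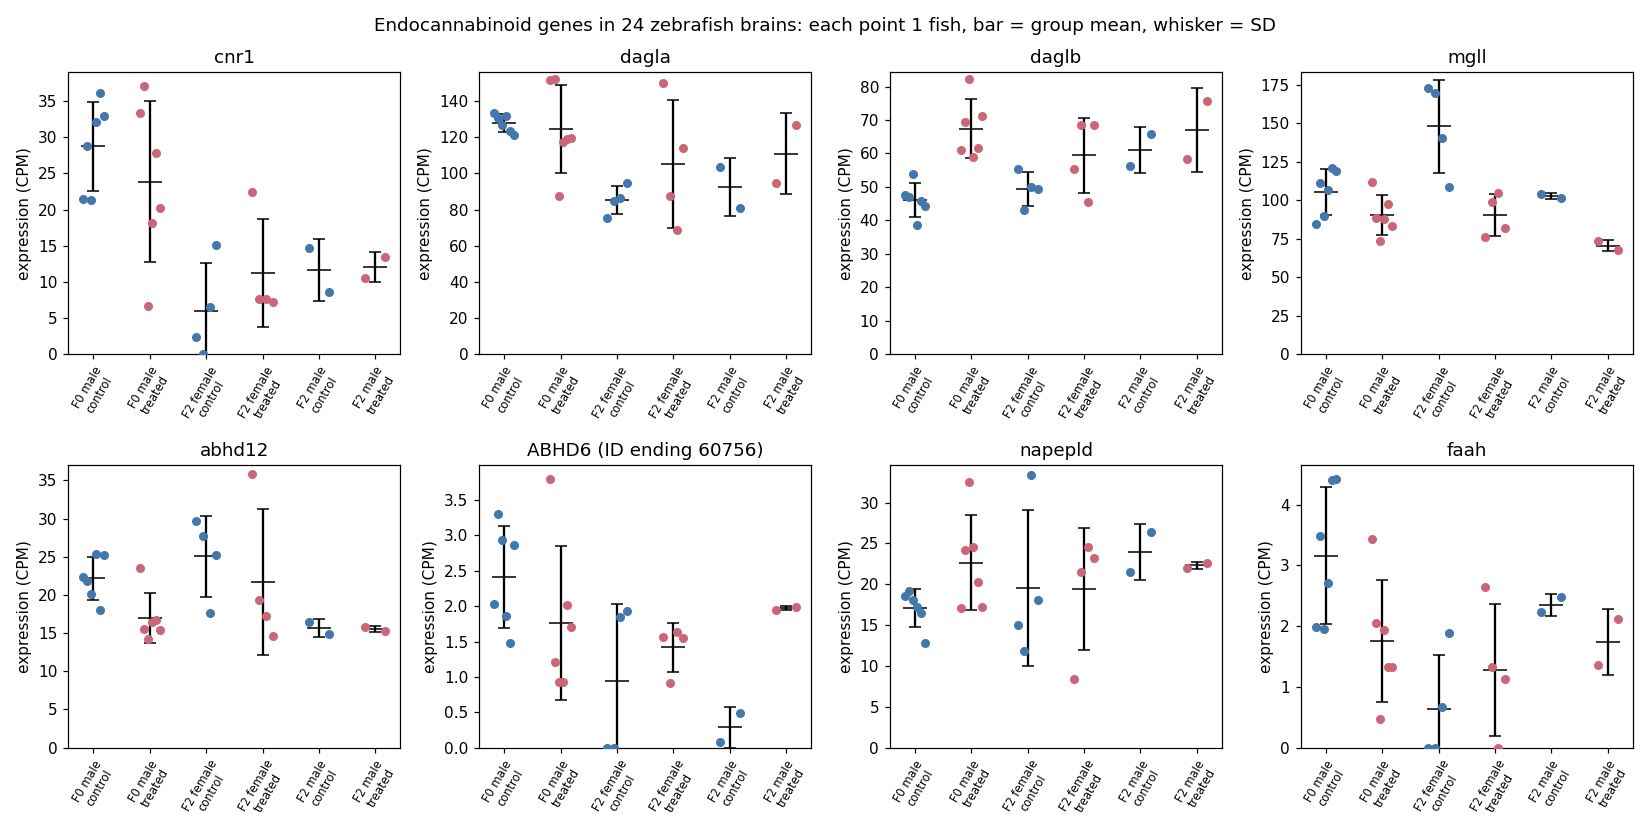
Expression in CPM of the 8 members that were tested, 1 panel per gene with its own vertical axis from 0; each point is 1 fish, blue control and red treated, the bar is the group mean and the whisker its SD (n = 6 per F0 group, 4 per F2 female group, 2 per F2 male group). The arms do not overlap for daglb in F0 males, where treated fish begin at 58.8 CPM, nor for mgll in F2 females and F2 males, where treated fish reach 105 and 73.3 CPM. In F2 males they also do not overlap for faah and ABHD6 ENSDARG00000060756. Over all genes tested the arms did not overlap in 5.59% in F0 males, 3.8% in F2 females and 38.8% in F2 males.

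The breakdown gene mgll (ENSDARG00000036820), whose product cleaves 2-arachidonoylglycerol in presynaptic terminals, stood lower in every F2 fish of the treated line than in any control fish of its sex, a difference that passed in DESeq2 in females and not in the planned edgeR fit. In F2 control females 11, 21, 31 and 39 it stood at 173, 169.6, 140.3 and 109 CPM. In F2 treated females 6, 10, 24 and 28 it stood at 76.0, 99.0, 105 and 81.9 CPM. In F2 males it was 104 and 101 CPM in the control and 73.3 and 67.9 CPM in the treated line. The arms did not overlap in either sex. The gap was narrow in females, where control fish 39 stood just above treated fish 24.

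The female means were 148 ± 29.9 and 90.4 ± 13.6 CPM (SD, n = 4 each), and the male means 103 ± 1.96 and 70.6 ± 3.84 CPM (SD, n = 2 each). Its log2 change was −0.72 (SE 0.159) in F2 females, −0.56 (SE 0.226) in F2 males and −0.67 (SE 0.127) with both sexes in one model. None passed in the planned edgeR fit: p was 0.000317, 0.0240 and 5.13e-05 before and 0.424, 1 and 0.253 after adjustment over 19463 genes. DESeq2 gave an adjusted p of 0.0371 in females and 0.00847 over both sexes, and edgeR without the low count filter one of 0.0361 over both sexes (log2 −0.66, SE 0.126). The difference between the female and the male change was −0.16 (SE 0.275, edgeR adjusted p = 1).

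In edgeR 0% of the 19463 genes passed in F2 females, in F2 males and in both sexes together. The genes with an unadjusted p below 0.05 numbered 1489, 272 and 1496, and DESeq2 called 48, 5 and 76. Among the 8 members 0 passed in edgeR in each, mgll was the only one with an unadjusted p below 0.05 in each, and DESeq2 called 1, 0 and 1. Arms that did not overlap were seen in 3.8% of genes in females and 38.8% in males, and in the same direction in both sexes in 1.18%. Of the members 1 of 8 in females (mgll) and 3 of 8 in males (mgll, faah and ABHD6 ENSDARG00000060756) had arms that did not overlap. With 2 fish against 2 such a separation is common.

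Without the 4 females with many genes at 0 the log2 change of mgll was −0.46 (SE 0.163, edgeR adjusted p = 0.307) in F2 females and −0.51 (SE 0.117, adjusted p = 0.302) over both sexes. With the percentage of reads outside genes as covariate it was −0.48 over both sexes (SE 0.189, adjusted p = 1). With that covariate in F2 females, 0 of 8 members, mgll included, and 504 of 19463 genes had an unadjusted edgeR p below 0.05. The F2 control females had both the highest share and the highest mean of mgll of the 6 groups. The share and the line cannot be told apart in F2 females, since the share separates them. In F2 males the share overlapped, at 19.1 to 21.0% in the control and 17.7 to 20.2% in the treated line. With the covariate in F2 males, 0 of 8 members and 239 of 19463 genes had an unadjusted edgeR p below 0.05. Over 12 alternative fits, the covariate fit included, the log2 change of mgll in F2 males ranged from −0.61 to −0.47. Within groups, over 24 fish, mgll and the share had a Pearson r of 0.54 and a Spearman rho of 0.51, with permutation p adjusted over 36 relations of 0.0832 and 0.147, and r was 0.43 without the 2 fish farthest in mgll. For daglb and the share r was −0.58 and rho −0.56, with adjusted permutation p of 0.104 and 0.161, and r was −0.46 without the 2 fish farthest in daglb. Neither relation passed.

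**Figure D3:**
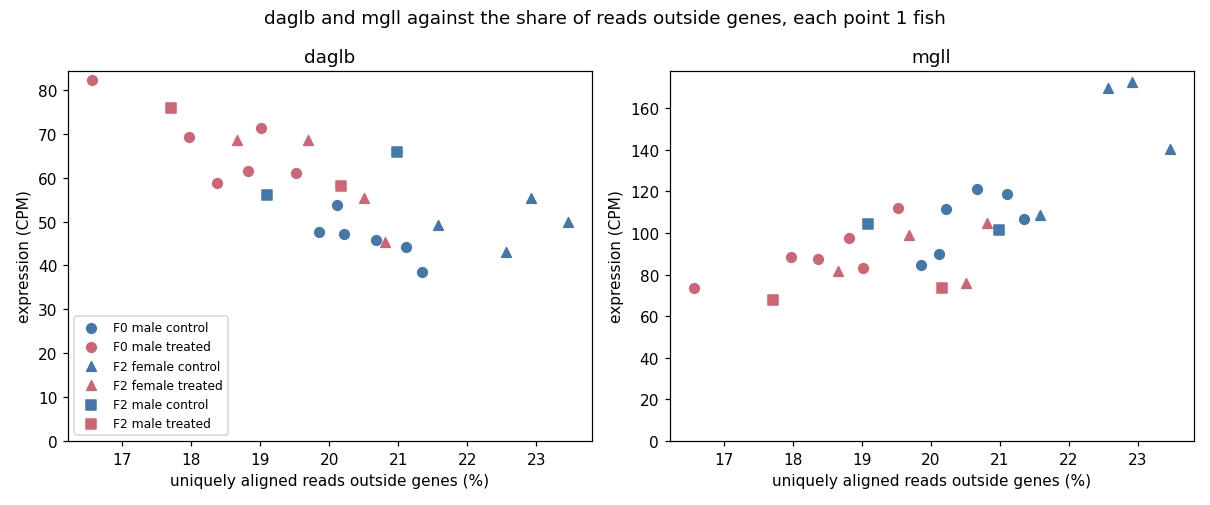
daglb (left) and mgll (right) in CPM against the share of uniquely aligned reads outside genes in percent; each point is 1 of 24 fish, blue control and red treated, circles F0 males, triangles F2 females and squares F2 males. Treated F0 males lie at 16.6 to 19.5% and control F0 males at 19.9 to 21.4%, with higher daglb in the treated; the 3 highest values of mgll belong to F2 control females.

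In F0 males mgll ran from 84.7 to 121.0 CPM in controls with a median of 109. In treated males it ran from 73.5 to 112 CPM with a median of 87.9. The arms overlapped, and 5 of 6 treated fish lay below the control mean. The log2 change was −0.22 (SE 0.112, edgeR adjusted p = 0.192). The change in F0 males minus that in F2 males was 0.33 (SE 0.249, adjusted p = 0.877), and it did not pass. F2 females had more mgll than F2 males, with a log2 difference of 0.45 (SE 0.140) that did not pass (edgeR adjusted p = 0.878).

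The other breakdown genes of 2-arachidonoylglycerol were abhd12 and ABHD6. The gene abhd12 (ENSDARG00000071004), whose product also cleaves lysophosphatidylserine and whose loss in humans causes a neurodegenerative disease, ran from 18.1 to 25.4 CPM in F0 controls with a median of 22.1. In F0 treated males it ran from 14.2 to 23.5 CPM with a median of 16.0. Of 6 treated fish 5 lay below every control, and treated fish 2 stood apart at 23.5 CPM. Its log2 change was −0.38 (SE 0.137) and did not pass in edgeR (adjusted p = 0.0752). DESeq2 gave an adjusted p of 0.0418, and without treated fish 2 edgeR gave −0.50 (SE 0.122, adjusted p = 0.0148). Of all genes DESeq2 called 3274 of the 25451 with at least 1 read, some of which it can leave without an adjusted p. The edgeR fit without treated fish 2 called 3217 of the 18369 that passed the filter. Without the 3 libraries apart the log2 change of abhd12 was −0.30 (SE 0.154, adjusted p = 0.325). Over all 20 alternative fits in edgeR or DESeq2 it ranged from −0.50 to −0.011. The adjusted p of those fits ran from 0.0148 to 0.996, and abhd12 passed in 2. With the percentage of reads outside genes as covariate 0 of the 8 members and 0 of the 18057 genes passed in edgeR.

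F2 control females 11, 21, 31 and 39 had 29.7, 27.7, 17.6 and 25.2 CPM of abhd12. F2 treated females 6, 10, 24 and 28 had 35.8, 19.3, 17.2 and 14.6 CPM. The males had 16.5 and 14.8 CPM in the control and 15.8 and 15.2 CPM in the treated line. Treated fish 6 was the highest of all 24 fish, while the other 3 treated females lay below the control mean. The log2 change was −0.21 (SE 0.269, edgeR adjusted p = 0.955) in F2 females and −0.03 (SE 0.385, adjusted p = 1) in F2 males. F2 females had more abhd12 than F2 males, by 0.59 on the log2 scale (SE 0.240, edgeR adjusted p = 0.939), which did not pass. The highest females, fish 6, 11 and 21, are among the 4 with many genes at 0. Over 20 alternative fits, the fit without those 4 females included, the log2 difference of abhd12 ranged from 0.29 to 0.66. It passed in 0 of them, and the part of those libraries was not tested beyond these fits. In the comparison of F2 females and males 0 of 8 members and 0.0154% of genes (3 of 19463) passed. There 2 members and 982 genes had an unadjusted p below 0.05, and DESeq2 called 33 genes and no member.

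ABHD6 ENSDARG00000060756, a membrane hydrolase of the postsynaptic side in mammals, was read at a few CPM. It ran from 1.48 to 3.31 CPM in F0 control and from 0.926 to 3.80 CPM in F0 treated males, with medians of 2.45 and 1.46. The arms overlapped, and 5 of 6 treated fish lay below the control mean. The log2 change in F0 males was −0.45 (SE 0.380, edgeR adjusted p = 0.461). F2 control females 11, 21, 31 and 39 had 0, 0, 1.85 and 1.93 CPM of it. F2 treated females 6, 10, 24 and 28 had 1.57, 0.908, 1.64 and 1.56 CPM. Both fish at 0 are among those with many genes at 0, and their counts allow up to 0.106 and 0.174 CPM.

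In F2 males ABHD6 ENSDARG00000060756 was 0.0855 and 0.495 CPM in the control line, from 2 and 8 reads, and 1.95 and 1.99 CPM in the treated line, from 23 and 29 reads. Both treated males stood above both controls, and the log2 change of 2.73 (SE 2.15) did not pass (edgeR adjusted p = 1). The F0 control males had more of it than the F2 control males, by 3.08 on the log2 scale (SE 1.33, edgeR adjusted p = 0.157). Over all genes 7.07% passed in this comparison of generations (1491 of 21082) and 0 of the 8 members did; 3 members and 4832 genes had an unadjusted p below 0.05, and DESeq2 called 2842 genes. DESeq2 called ABHD6 alone among the members (adjusted p = 0.0189), as did edgeR fitted on males only (adjusted p = 0.00881). It rests on 10 reads in the 2 F2 control males.

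Of the anandamide genes, napepld (ENSDARG00000009252), whose phospholipase releases anandamide from its membrane precursor, ran from 12.8 to 19.1 CPM in F0 controls with a median of 17.6. In F0 treated males it ran from 17.0 to 32.5 CPM with a median of 22.3. The arms overlapped, with 5 of 6 treated fish above the control mean and fish 16 highest. Its log2 change was 0.41 (SE 0.162, edgeR adjusted p = 0.103). It passed in 1 of the alternative fits, without treated fish 2 (0.48, SE 0.160, adjusted p = 0.0498), and turned to −0.29 (SE 0.189, adjusted p = 0.884) with the percentage of reads outside genes as covariate. The fit without treated fish 2 called 3217 of 18369 genes.

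F2 control females 11, 21, 31 and 39 had 15.0, 11.8, 33.3 and 18.1 CPM of napepld. F2 treated females 6, 10, 24 and 28 had 8.37, 21.5, 24.5 and 23.3 CPM. The males had 21.6 and 26.4 CPM in the control and 22.0 and 22.6 CPM in the treated line. The arms overlapped in both sexes. The log2 change was −0.02 (SE 0.339, edgeR adjusted p = 0.999) in F2 females and −0.12 (SE 0.481, adjusted p = 1) in F2 males.

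The hydrolase gene faah (ENSDARG00000077764), whose product ends the action of anandamide, was read at less than 5 CPM throughout. It ran from 1.96 to 4.42 CPM in F0 control and from 0.464 to 3.44 CPM in F0 treated males, with medians of 3.10 and 1.63. The arms overlapped; 5 of 6 treated fish lay below the control mean and fish 16 was lowest, with 13 reads. Its log2 change was −0.86 (SE 0.397, edgeR adjusted p = 0.161), and without the 3 libraries apart it was −0.47 (SE 0.377, adjusted p = 0.551). With the percentage of reads outside genes as covariate it turned to 0.52 (SE 0.585, adjusted p = 0.937).

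F2 control females 11, 21, 31 and 39 had 0, 0, 0.677 and 1.89 CPM of faah. F2 treated females 6, 10, 24 and 28 had 2.64, 1.33, 0 and 1.14 CPM. All 3 fish at 0 are among the 4 with many genes at 0, and the limit a count of 0 allows in them is 0.106 to 0.174 CPM. The males had 2.22 and 2.47 CPM in the control and 1.36 and 2.12 CPM in the treated line, which did not overlap. The log2 change was 0.98 (SE 1.49, edgeR adjusted p = 0.973) in F2 females and −0.45 (SE 2.09, adjusted p = 1) in F2 males. Neither passed, and in females the direction turned to −0.06 (SE 0.746) without the 4 fish.

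**Figure D4:**
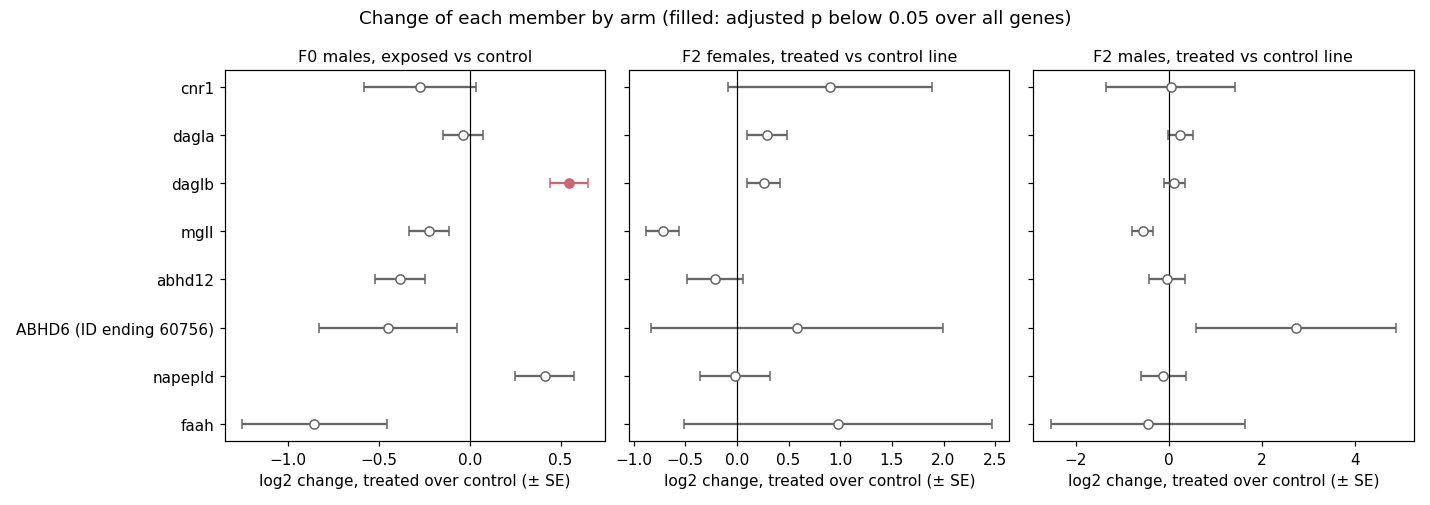
Log2 change of treated over control with its SE for the 8 tested members in F0 males (left), F2 females (middle) and F2 males (right); the horizontal scales differ between panels and a filled point has an edgeR adjusted p below 0.05 over all genes. The only filled point is daglb in F0 males at 0.55; mgll lies at −0.22, −0.72 and −0.56 from left to right.

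The members differed widely in how much fish of a group varied. The biological coefficient of variation, the spread between fish of a group beyond counting error over all 24 fish, was 16.0% for daglb, 16.6% for mgll, 18.5% for dagla, 23.6% for abhd12 and 29.3% for napepld. It was 74.0% for cnr1, 79.7% for ABHD6 ENSDARG00000060756 and 88.1% for faah. The median of all genes was 39.4%. The first 5 therefore varied less than the median gene and the other 3 more. Their levels differed too: faah and ABHD6 ENSDARG00000060756 stood at percentiles 31.0 and 29.0 of mean level among genes tested. For cnr1 it was 65.8, and the first 5 stood at 67.7 to 92.0. Each of the other 3 also had no read in some of the F2 females with many genes at 0. The parts of level and of those libraries in the spread were not tested. Over the 8 members the median log2 change was −0.25 in F0 males, 0.27 in F2 females and 0.00 in F2 males, beside −0.02, −0.02 and 0.00 over all genes tested. These medians were unstable: that of F0 males was 0.22 with the covariate and −0.063 without the 3 libraries apart, and that of F2 females was −0.27 without the 4 females with many genes at 0.

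Some members moved together or apart from fish to fish within groups. Among 28 pairs of members and their 8 relations with the share of reads outside genes, 36 in all, 2 had a Pearson r with an adjusted permutation p below 0.05, and none a Spearman rho. Those of napepld and abhd12 ran in opposite directions, with r = −0.84 (permutation p = 7e-04, adjusted 0.0126) and rho = −0.72 (p = 0.00365, adjusted 0.131) over 24 fish. Without the 2 fish farthest in napepld r was −0.69, and it was −0.56 over the 12 F0 and −0.94 over the 12 F2 fish. The fish highest in abhd12, F2 treated female 6 and control females 11 and 21, are among those with many genes at 0. Between napepld and the share r was −0.88 over the F0 and 0.026 over the F2 fish. Between abhd12 and the share it was 0.65 and 0.13. The parts of those libraries and of the share in the relation were not tested. Those of faah and dagla ran together, with r = 0.68 (permutation p = 0.00057, adjusted 0.0126) and rho = 0.49 (p = 0.0164, adjusted 0.147). Without the 2 fish farthest in faah r was 0.59, and it was 0.73 over the F0 and 0.69 over the F2 fish. The 3 fish with no read of faah are among the females with many genes at 0, and their part in this relation was not tested.

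**Figure D5:**
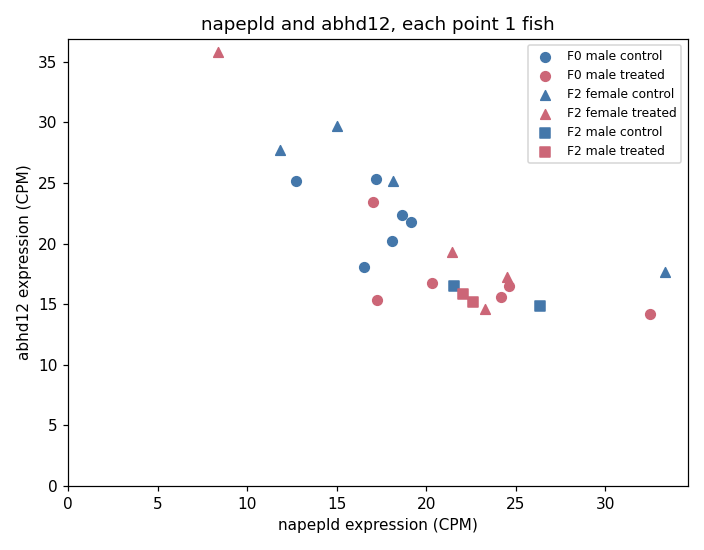
abhd12 against napepld, both in CPM; each point is 1 of 24 fish, blue control and red treated, circles F0 males, triangles F2 females and squares F2 males. Fish high in napepld tend to be low in abhd12, with a within-group Pearson r of −0.84. F2 treated female 6 is at the upper left with 8.37 and 35.8 CPM. F2 control female 31 is at the right with 33.3 and 17.6 CPM. Fish 6 is among the F2 females with many genes at 0.

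Genes whose within-group deviations were most like those of a member were ranked among 14357 genes by Pearson r over 24 fish, as a description. For cnr1 they were KAZN (r = 0.97), MTMR9 (0.97) and SAMTOR (0.97), with Spearman rho of 0.80, 0.79 and 0.79. For dagla they were bsk146 (r = 0.93), AP2B1 (0.91) and soul4 (0.91), with rho of 0.90, 0.79 and 0.86. For mgll they included TBCEL (r = 0.83) and FRMPD3 (0.81), with rho of 0.84 and 0.83. For faah they were FAM171B (r = 0.96), SLC44A2 (0.93) and DNM1 (0.93), the dynamin of synaptic vesicle recycling. Their rho was 0.91, 0.84 and 0.81. F2 control female 21 had no read of cnr1, and control females 11 and 21 and treated female 24 had none of faah. These fish are among the F2 females with many genes at 0. The part of those libraries in the likeness was not tested. The symbols KAZN, TBCEL, SLC44A2 and DNM1 are each carried by 2 IDs.

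Around the members, 61 further gene IDs of the pathway were looked at in lists of other receptors, other synthesis and breakdown genes, and partners of CB1 with lipid carriers. In F0 males 53 were tested, 4 rose and 1 fell, all 5 among the 27 CB1 partners and lipid carriers. That is 5 of 53 against 11.4% of all genes. The median log2 change of the 27 was 0.0024, beside −0.016 over all genes tested. G protein subunits that did not pass went both ways. They included gnai1 at −0.33 (SE 0.105, edgeR adjusted p = 0.0535) and GNAI2 ENSDARG00000017294 at 0.25 (SE 0.0807, adjusted p = 0.0547). GNAO1 (ENSDARG00000016676), a G protein subunit that CB1 couples to, rose from 537.5 ± 10.9 to 645 ± 41.8 CPM (log2 0.26, SE 0.0666, edgeR adjusted p = 0.0265). The potassium channel subunits KCNJ3 (ENSDARG00000062217) and KCNJ6 (ENSDARG00000058985), which such G proteins open, rose by 0.31 (SE 0.0734, adjusted p = 0.0214) and 0.52 (SE 0.134, adjusted p = 0.0276) on the log2 scale. The other KCNJ3 ID, ENSDARG00000077165, had a log2 change of 0.063 (SE 0.154, edgeR adjusted p = 0.825) and did not pass. The adenylyl cyclase gene ADCY8 rose by 0.41 (SE 0.112, adjusted p = 0.0338). The adenylyl cyclase IDs of ADCY5 (log2 −0.44, edgeR adjusted p = 0.203) and ADCY1 (−0.51 and −0.84, adjusted p = 0.485 and 0.438) went the other way and did not pass.

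The gene ID that fell was CNRIP1 ENSDARG00000037337, 1 of 2 IDs of a protein that binds the tail of CB1. This ID went from 3.21 ± 0.885 to 1.64 ± 0.472 CPM (SD, n = 6 each), a log2 change of −0.97 (SE 0.301, edgeR adjusted p = 0.0487). The other CNRIP1 ID, ENSDARG00000091683, had a log2 change of 0.17 (SE 0.0799, edgeR adjusted p = 0.178), in the opposite direction, and did not pass. All 5 kept their direction in each of 20 alternative fits, and none passed with the covariate, with which 0 of all genes passed in edgeR, or without the 3 libraries apart. With the covariate the log2 change was 0.25 for GNAO1, 0.49 for KCNJ6, 0.16 for KCNJ3, 0.057 for ADCY8 and −0.47 for CNRIP1. Without the 3 libraries it was 0.26, 0.63, 0.25, 0.33 and −0.79 in that order. CNRIP1 passed in 4 of the 20, ADCY8 in 10, GNAO1 in 12 and KCNJ3 and KCNJ6 in 14 each. Of the other receptors, synthesis and breakdown genes 0 of 26 tested passed in F0 males in edgeR, 3 had an unadjusted p below 0.05, and DESeq2 called 2. In F2 females and F2 males 54 of the 61 were tested and 0 passed in edgeR; 5 and 1 had an unadjusted p below 0.05, and DESeq2 called 1 and 0.

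Between F0 and F2 control males 59 of the 61 were tested, 2 were higher and 2 lower in F0 males, beside 7.07% of all genes called, so 4 of 59 is near the background. The metabotropic glutamate receptor gene GRM5 (ENSDARG00000004445), which drives 2-arachidonoylglycerol synthesis after the synapse, was higher by 0.90 on the log2 scale (SE 0.206, edgeR adjusted p = 0.0110). The calcium channel gene CACNA1B (ENSDARG00000021735), a target of CB1 signalling, was higher by 1.23 (SE 0.359, adjusted p = 0.0377). The fatty acid binding protein genes FABP3 and FABP7 (ENSDARG00000007697) were lower, with log2 differences of −0.91 (SE 0.228, adjusted p = 0.0187) and −0.66 (SE 0.206, adjusted p = 0.04998). The symbols GRM5, CACNA1B and FABP7 are each carried by 2 IDs, and the other ID of each was tested and did not pass. With both arms in the comparison GRM5 gave 0.43 (SE 0.142, adjusted p = 0.0745), CACNA1B 0.85 (SE 0.248, adjusted p = 0.0510) and FABP7 −0.38 (SE 0.148, adjusted p = 0.137). Of 17 alternative fits GRM5 passed in 14, FABP3 in 15, CACNA1B in 8 and FABP7 in 6. In the same comparison 6 of 12 radial glia markers were lower in F0 males, FABP7 ENSDARG00000007697 among them, with a summed level of 5993 to 7919 CPM in F0 and 8492 to 10010 CPM in F2 control males. Of 10 microglia markers 2 were lower, with sums of 306 to 452 and 616 to 646 CPM, as were 1 of 6 muscle and 1 of 10 oligodendrocyte markers, and 2 of 18 neuronal markers were higher. Their part in these differences was not tested. The labels give no age, rearing or sampling date of the fish, and generation cannot be told apart from these.

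For the tests of differences between changes, in F0 against F2 males and in F2 females against F2 males, 0% of genes and 0 of 8 members passed in edgeR. Unadjusted p below 0.05 was met by 1303 and 291 genes and by 0 members in each, and DESeq2 called 11 and 0 genes and no member.

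Cell type and region markers were read beside these results. In F0 males 11.4% of all genes were called, and the counts of markers below stand beside that share. There 3 of 10 tested cerebellar markers rose. The summed level of the 11 cerebellar markers was 4132 to 4952 CPM in control and 4949 to 7406 CPM in treated males. Of 17 neuronal markers 3 rose and 2 fell, and 1 of 7 endothelial and 1 of 11 radial glia markers rose; of the microglia, oligodendrocyte, erythrocyte, forebrain, hindbrain, muscle, pituitary and photoreceptor lists none passed. Photoreceptor markers summed to 8.17 to 549 CPM in F0 control and 374 to 637 CPM in F0 treated males. The part of these differences in the value of daglb was not tested. In F2 females and F2 males no marker of any list passed, as no gene did in edgeR.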

How the data were processed

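The authors deposited raw counts of reads per gene, 1 table per sequencing run, for 31 runs of 24 brains. The submitters' processing notes name the genome GRCz11 (danRer11), the counter HTSeq 0.11.2, the aligner STAR 2.7, the trimmer cutadapt 2.1, and bcl2fastq; DESeq2 1.24.0 is also named. Per the labels' protocols libraries came from the TruSeq mRNA kit. No source used here gives the annotation release or whether counting used strand, so values of overlapping and antisense genes are uncertain.

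The 2 runs of 7 fish were summed, and the fish is the replicate. Chi-square per degree of freedom was 1.03 to 1.19 between runs of a fish and 18.3 to 115 between fish of a group. HTSeq's 5 summary lines stayed out of library sizes. Symbols came from a table naming 29201 of 32520 IDs. No sequence or coordinate was used.

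Counts were tested with edgeR 4.0.16 (TMM, filterByExpr with a minimum count of 10, glmQLFit robust, glmQLFTest) in R 4.3.3, Benjamini-Hochberg at 0.05. F0 males had a fit of their own (12 fish), F2 fish another in 4 groups of sex and line (12 fish), and comparisons across generations over all 24. SE is the log2 change over the root of F. DESeq2 1.42.0, other scalings, no filter, other fits, first runs, a covariate and left-out fish were alternatives. The edgeR fit of F0 males was run on counts simulated for those 12 fish with 200 genes changed. The other fits and DESeq2 were not tried on simulated counts. Within-group relations used deviations of log2 CPM (prior count 2) and 100000 permutations within groups. Intervals for a count of 0 (3 reads) cover counting error only.

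The members and lists were chosen with earlier results of these data known. Named genes were every member, up to 4 called genes of the pathway lists per comparison with the lowest p (5 are named in F0 males because CNRIP1, the fall, was added after its values were seen), and the 3 genes most like cnr1, dagla, mgll and faah among those with a mean of at least 1 CPM; 1 of these is not reported here.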

Additional observations from a re-analysis of the deposited data

Results flagged for a closer look

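In a group of 4 or 6 fish a value was marked where its gap to the nearest fish was too large a part of the group's range for Dixon's 95% limit. Of 35 groups examined 3 were marked, and chance marks about 1 in 20. F2 treated female 6 had 22.4 CPM of cnr1, with a gap of 0.971 of the range against a limit of 0.829; the other 3 treated females had 7.24 to 7.69 CPM. F2 treated female 10 had 0.908 CPM of ABHD6 ENSDARG00000060756, a gap of 0.888 of the range, beside 1.56 to 1.64 CPM in the others. F0 treated male 2 had 23.5 CPM of abhd12, a gap of 0.727 against a limit of 0.625, beside 14.2 to 16.7 CPM in the others. Fish 6 is among the 4 females with many genes at 0 and also had the highest dagla and abhd12 and the lowest napepld of the F2 females.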

How the results depend on the processing

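Over 64 log2 changes of members and 1184 alternative values of them, 1122 kept direction and side of the threshold, 52 turned direction, 8 passed where the main fit did not and 2 no longer passed. In F0 males members called numbered 2 with DESeq2, 0 with the percentage outside genes as covariate and 0 without the 3 libraries apart. They numbered 1 to 3 with 1 fish left out (3 without treated fish 2). Of all genes DESeq2 called 3274 of the 25451 with at least 1 read, some of which it can leave without an adjusted p. The edgeR fit without treated fish 2 called 3217 of the 18369 that passed the filter. The main fit called 2060 of 18057. DESeq2 called 1 member in F2 females, 1 in both F2 sexes and 1 between F0 and F2 control males, beside 48, 76 and 2842 of all genes. In both F2 sexes without the filter 1 member (mgll) and 5 of all genes were called. Between generations with males only in the fit 1 member and 4069 of all genes were called. With 1 fish left out the number of members called stayed at 0 in every other comparison.

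With that covariate the F0 changes became 0.85 (cnr1), 0.17 (mgll), 0.52 (faah), 0.24 (dagla), −0.29 (napepld) and 0.37 (ABHD6); those of F2 females −0.044 (dagla) and 0.17 (napepld); of F2 males −0.19 (cnr1) and 0.041 (abhd12); of both F2 sexes −0.42 (faah), 0.053 (napepld) and 0.0011 (abhd12). It also turned dagla to 0.14 between F2 sexes, mgll to −0.033 between generations and dagla to −0.15 in the difference between F2 female and male changes. Without the 3 libraries apart dagla in F0 males was 0.035 and mgll between generations −0.028. Without the 4 F2 females with most genes at 0, chosen after seeing the data, F2 females gave −0.53 (cnr1), −0.060 (faah) and −0.61 (ABHD6), both sexes −0.25 (cnr1) and −0.26 (faah), F2 females against males 0.061 (napepld), and the difference of F2 changes −0.57 (cnr1), 0.10 (mgll), −0.091 (dagla) and −0.086 (napepld). The cause was not tested.

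Leaving out 1 fish turned 24 values, all of changes that did not pass. In F0 males dagla ranged from −0.10 to 0.046. In F2 females napepld ranged from −0.19 to 0.37, and in both sexes from −0.17 to 0.19. In F2 males cnr1 ranged from −0.28 to 0.46, daglb from −0.064 to 0.30, napepld from −0.26 to 0.048 and abhd12 from −0.090 to 0.043. Dagla between F2 sexes ranged from −0.19 to 0.015 and mgll between generations from −0.0023 to 0.096. In differences of changes cnr1 ranged from −0.75 to 0.014 (F0 against F2 males), and between F2 sexes dagla from −0.17 to 0.25, daglb from −0.039 to 0.33 and napepld from −0.076 to 0.49.

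Genes called in F0 males numbered 2060, and 3274 with DESeq2, 787 with all 24 fish, 42 without the 3 libraries apart, 0 with the covariate and 440 to 3217 with 1 fish left out. Genes called between generations numbered 1491, and 2842 with DESeq2, 4069 with males only, 902 with both arms and 13 to 1517 with 1 fish left out. No paired analysis was possible because nothing in the labels ties a fish of any group to a fish of another. Read counts were lowest for ABHD6 ENSDARG00000070894, with at most 8 reads in a fish. Among the tested members they were lowest for faah and ABHD6 ENSDARG00000060756, with at most 125 and 84 reads in a fish. F2 control female 11 had no read of these 2 tested members in 30.1 M reads.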
